A study of Mus musculus with 8 samples.

Results

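The nuclear genes for the subunits and assembly factors of mitochondrial complex I were taken from the count table as all genes whose symbol begins with Nduf, the prefix of most of them. Of 51 such genes, 2 with a pseudogene symbol (ending in -ps) and 2 with under 80 counts over all libraries were left out, which gave 47 of 54532 genes in the table. The 47 genes comprise 7 core subunits of the hydrophilic arm, 9 accessory subunits of the hydrophilic arm, 19 accessory subunits of the membrane arm, the acyl carrier protein Ndufab1 that sits in both arms, and 8 assembly factors. Ndufa4 and its relative Ndufa4l2 are also included by symbol, although Ndufa4 is now assigned to complex IV in mammals. The last gene, Ndufs6b, is annotated as a processed pseudogene. The genes with the fewest counts above the limit of 80 were Ndufa4l2 with 951 and Ndufs6b with 1144, both well clear of it. Below the limit stood Ndufb4c with 44 and Ndufa11b with 0, both annotated as processed pseudogenes. Of the -ps genes, Ndufab1-ps had a log2 fold change of 0.15 ± 0.09 and Ndufb1-ps one of 0.14 ± 0.11, with adjusted p of 0.47 and 0.578. Ndufab1-ps, with 5658 counts, is annotated as a processed pseudogene. Ndufb1-ps, with 28311 counts, is annotated as a bidirectional promoter lncRNA and not as a pseudogene. No gene named Ndufb1 is among the 47, so the membrane arm class is without it.

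Complex I, or NADH:ubiquinone oxidoreductase, is the entry point of the mitochondrial respiratory chain. It takes electrons from NADH along a hydrophilic arm in the mitochondrial matrix, passes them to ubiquinone, and pumps protons through a membrane arm. Core subunits carry out the catalysis, accessory subunits stabilise them, and assembly factors build the complex without staying in it. Brown fat is rich in mitochondria, and the respiratory chain there builds the proton gradient that the uncoupling protein Ucp1 turns into heat.

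RNA was sequenced from whole interscapular brown fat of 8 male mice that were 7 months old, ate normal chow and spent 24 h at 4 °C in metabolic cages. The group labelled KO holds 4 mice with floxed Pparg and Myl1-Cre, and the group labelled WT holds 4 mice with floxed Pparg and no Cre, so all 8 carry the floxed gene. Pparg encodes a nuclear receptor needed for adipocytes to form. Myl1-Cre acts in cells that express or expressed the myosin light chain gene Myl1, and the study asks what Myl1-positive adipose progenitors contribute to brown fat, so only a part of the cells in this tissue can lose Pparg.

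Pparg RNA was higher in the libraries labelled KO, which goes against the label. It had 284 ± 24.9 CPM in the libraries labelled KO and 197 ± 7.36 CPM in WT (mean ± SD, n = 4 each), where CPM is a gene's count scaled to its library's size, adjusted by the TMM method. Its log2 fold change was 0.52 ± 0.09 (SE) with an adjusted p of 0.0328 by edgeR's quasi-likelihood test, and leaving out any 1 library gave adjusted p of 0.0505 to 0.119. A gene count also takes in exons outside the floxed part, so it does not test the deletion. The group is therefore called the libraries labelled KO, and each direction below follows the labels. Total counts were 12226608 to 16977010 in the libraries labelled KO and 12407466 to 19268945 in WT. Ucp1 had 9303 ± 1473 CPM in the libraries labelled KO and 11441 ± 1272 CPM in WT (adjusted p = 0.344), so this defining brown fat gene was abundant in both groups. Skeletal muscle RNA was present in all 8 libraries and uneven between them. The summed level of 30 muscle marker genes was 25243, 25988, 24890 and 13917 CPM in the libraries labelled KO 1 to 4, against 7541, 19723, 13318 and 14659 CPM in WT 1 to 4. In bulk tissue, fewer cells of a type cannot be told apart from less RNA per cell.

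The promoters of 40 of the 47 genes were read from RefSeq (build GRCm38.p6, 250 bases before to 50 bases after the start), and those without a window include Ndufa2, Ndufa4l2, Ndufaf6, Ndufb9, Ndufs1 and Ndufs6b. The windows below belong to the genes with the highest and the lowest fold change among those with a window, Ndufa11 and Ndufa10, and to Ndufaf8, the assembly factor with the smallest p. They run 5′ to 3′ along each gene's strand, at chr17:56717512-56717811, plus strand, at chr1:92473709-92474008, minus strand and at chr11:120098684-120098983, plus strand. Capitals mark exact matches, on either strand, to 4 short motifs of factors known for mitochondrial genes: GCATGCGC for NRF1, AAGATGGCG for YY1, CCGGAAG for the ETS family and AAGGTCA for the oestrogen-related receptors.
Ndufa11: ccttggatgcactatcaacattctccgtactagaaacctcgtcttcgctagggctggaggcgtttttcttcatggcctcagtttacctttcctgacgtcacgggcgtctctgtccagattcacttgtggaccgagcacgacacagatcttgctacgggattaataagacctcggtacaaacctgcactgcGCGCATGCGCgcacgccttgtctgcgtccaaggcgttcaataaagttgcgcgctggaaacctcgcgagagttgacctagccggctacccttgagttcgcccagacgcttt
Ndufa10: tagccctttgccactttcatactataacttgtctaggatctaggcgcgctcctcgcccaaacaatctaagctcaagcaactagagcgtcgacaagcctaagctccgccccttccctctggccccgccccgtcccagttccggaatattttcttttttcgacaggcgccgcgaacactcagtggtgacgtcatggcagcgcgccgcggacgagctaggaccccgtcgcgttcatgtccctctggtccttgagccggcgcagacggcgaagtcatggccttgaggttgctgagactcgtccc
Ndufaf8: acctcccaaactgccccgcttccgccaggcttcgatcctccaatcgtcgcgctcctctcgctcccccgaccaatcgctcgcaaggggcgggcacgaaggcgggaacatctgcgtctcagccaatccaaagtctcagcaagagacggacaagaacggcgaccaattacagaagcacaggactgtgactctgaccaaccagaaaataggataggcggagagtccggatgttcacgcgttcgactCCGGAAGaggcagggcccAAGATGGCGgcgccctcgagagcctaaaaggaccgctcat
In the Ndufa11 window the capitals are an NRF1 match on each strand, which overlap because the letters in part repeat their own reverse complement. In the Ndufaf8 window they are an ETS match just before the transcript start and a YY1 match just after it, and the Ndufa10 window held none of the 4. Over the 40 windows, NRF1 letters were found in 5 (12.5%, against 3.05% of 27025 promoters of the same length) and YY1 letters in 6 (15.0%, against 1.64%). ETS letters were found in 6 (15.0%, against 9.93%) and receptor letters in 3 (7.5%, against 5.38%). The NRF1 matches belong to Ndufa11, Ndufa6, Ndufa8, Ndufaf4 and Ndufaf5, and the YY1 matches to Ndufa9, Ndufaf8, Ndufc1, Ndufs4, Ndufs6 and Ndufs7. The ETS matches belong to Ndufaf1, Ndufaf8, Ndufb6, Ndufb7, Ndufs3 and Ndufs8, and the receptor matches to Ndufb2, Ndufb4 and Ndufs5. The genes with and without a match had median log2 fold changes of 0.07 and 0.09 for NRF1 and of 0.16 and 0.07 for YY1. For ETS these were 0.08 and 0.08, and for the receptors 0.06 and 0.10. Each set with a match held only 3 to 6 genes. A match is a description of the letters and not a site of binding.

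None of the 47 genes differed between the groups past the threshold of an adjusted p under 0.05. All 47 passed the filter on low counts and were tested by edgeR's quasi-likelihood test among 13756 genes, of which 53 (0.385%) were past the threshold, 40 higher and 13 lower in the libraries labelled KO. The smallest adjusted p among the 47 was 0.202, for Ndufa11, and DESeq2 and limma-voom likewise called none. At an unadjusted p under 0.05, 5 of the 47 were higher in the libraries labelled KO (Ndufa11, Ndufa2, Ndufa13, Ndufaf8 and Ndufb9), where 8.05% of all tested genes were, and 0 were lower, where 7.12% of all tested genes were. Of the 47, 1 was under that p when KO 1, KO 4 or WT 2 was left out, and 2 when WT 4 was. The number was 4 without WT 1, 5 without KO 3, 7 without KO 2 and 8 without WT 3. Over all tested genes it also moved, from 1465 of 14034 without WT 1 to 2432 of 14005 without WT 3, in either direction. The numbers did not always move together. Over all tested genes it was 1581 of 13973 without KO 1 and 1530 of 14041 without WT 4. Without KO 4 it was 2382 of 13915 and without WT 2 it was 2290 of 13904, both above the fit reported. With a covariate for muscle, or with scaling by total counts, 15 of the 47 were under that p, and again none was past the threshold. Over all 13756 tested genes, 1323 were under it with the covariate and 1990 with total counts, against 2088 in the fit reported. Scaling by total counts also put the median log2 fold change of all tested genes at 0.04. All 4 libraries labelled KO lay above all 4 WT libraries in 4 of the 47 (Ndufa11, Ndufa2, Ndufs7 and Ndufb11), against 4.1% of all tested genes, and below them in 0 of the 47, against 4.0%.

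The estimates were small, with narrow intervals in the fit reported. Log2 fold changes of the 47 genes ran from -0.19 to 0.27, with SE of 0.0829 to 0.16, and 64.0% of all tested genes had a fold change in that range. The interval of 42 of the 47 genes held 0. Over all 47, the 95% intervals stayed between 0.744-fold and 1.43-fold, so larger changes than these lay outside each gene's interval. That holds for each gene taken singly and for this fit only. With the muscle covariate, for 1, Ndufa2 was at 0.38 ± 0.11 (SE). The median log2 fold change was 0.09, beside 0.00 over all tested genes, and 34 of the 47 were above 0, beside 50.3% of all tested genes. Leaving out KO 4 gave a median of 0.04 with 27 of 47 above 0, and leaving out WT 2 gave 0.05 with 30 above 0. With a muscle score (the mean log2 CPM of 30 muscle markers) of each library as a covariate the median was 0.19, and 41 of 47 were above 0. The median over all tested genes was -0.01 in that fit. The score was 9.12, 9.27, 9.22 and 8.34 in KO 1 to 4, against 7.53, 8.89, 8.33 and 8.46 in WT 1 to 4. It thus differed in part with the group, and this fit cannot fully separate the 2.

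**Figure D1:**
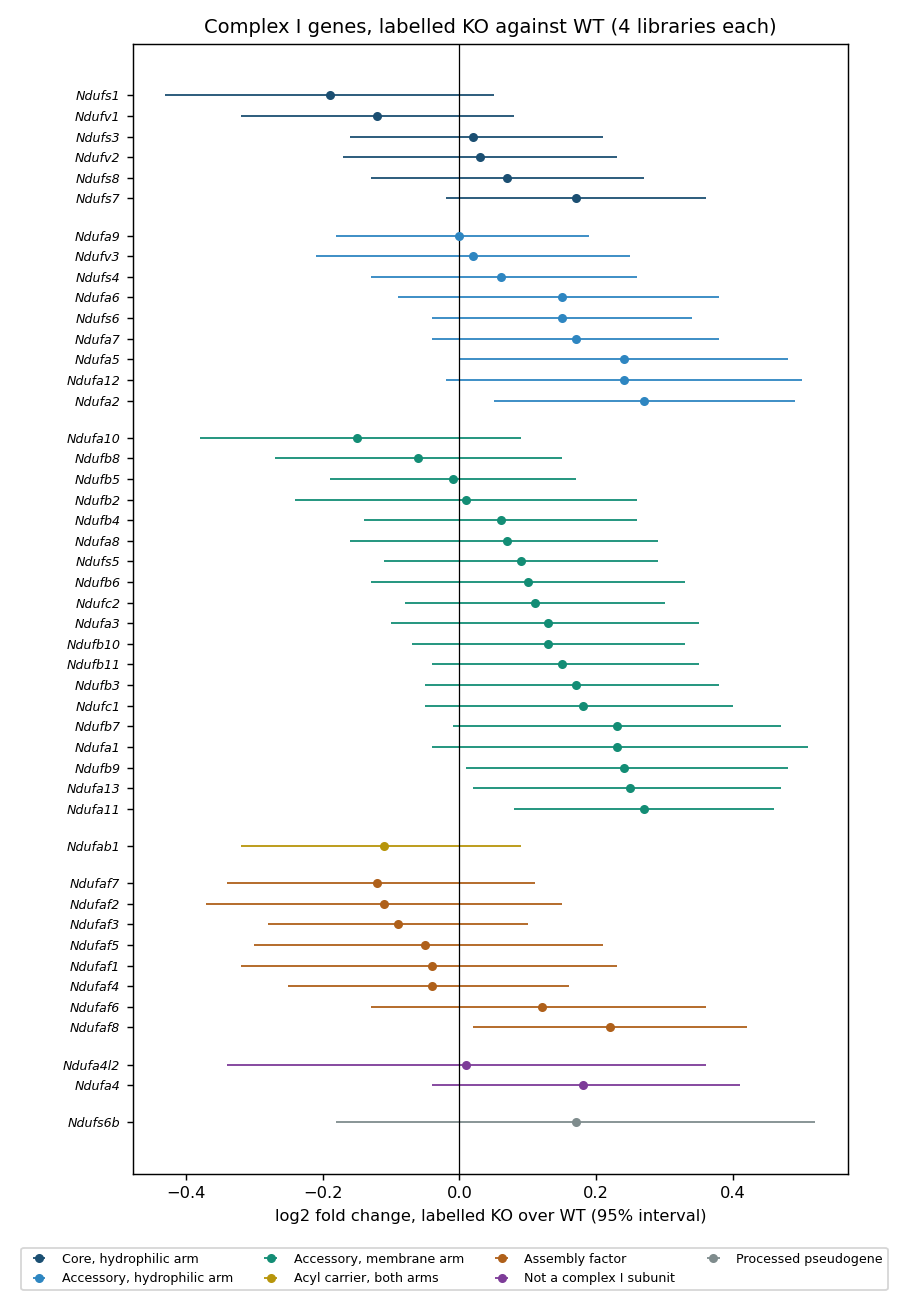
Log2 fold change of 46 of the 47 genes, libraries labelled KO over WT (x axis), with its 95% interval as a line, from edgeR over 4 libraries per group; genes run down the page by role and, within a role, from low to high. The points lie between -0.19 and 0.27, the lines of 41 genes cross 0, and 9 of 9 accessory subunits of the hydrophilic arm have a point at or above 0.

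Among the core subunits of the hydrophilic arm, which hold the flavin and the iron-sulphur clusters, the estimates lay on both sides of 0. Of the 7, 4 were above 0 and 3 below, with a median of 0.02 and a range of -0.19 to 0.17. Ndufs1, the large iron-sulphur subunit near the NADH end (ENSMUSG00000025968, GRCm38 chromosome 1, 63143596 to 63176833, minus strand), had 396, 498, 519 and 497 CPM in the libraries labelled KO 1 to 4, against 575, 555, 486 and 561 CPM in WT 1 to 4. KO 1 was the lowest library and WT 3 lay among the libraries labelled KO, so the groups overlapped. Its log2 fold change was -0.19 ± 0.11 (SE, 95% interval -0.43 to 0.05, adjusted p = 0.429), the lowest of the 47, and -0.11 when KO 1 was left out. Its exons overlap Eef1b2 and Ino80dos on the other strand, and whether reads were counted by strand is not known here.

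Ndufv1, the flavin-binding subunit that accepts electrons from NADH (ENSMUSG00000037916, GRCm38 chromosome 19, 4007384 to 4012806, minus strand), had 662, 733, 738 and 772 CPM in the libraries labelled KO 1 to 4, against 816, 737, 766 and 837 CPM in WT 1 to 4. KO 1 was again the lowest, while KO 3 and KO 4 lay above WT 2. The log2 fold change was -0.12 ± 0.09 (SE, 95% interval -0.32 to 0.08, adjusted p = 0.569), and -0.05 with the muscle covariate. Ndufs7, which holds the cluster that passes electrons to ubiquinone (ENSMUSG00000020153, GRCm38 chromosome 10, 80249121 to 80256794, plus strand), had 372, 356, 353 and 412 CPM in the libraries labelled KO 1 to 4, against 319, 327, 349 and 332 CPM in WT 1 to 4. Every library labelled KO lay above every WT library, with the closest pair at 353 CPM in KO 3 and 349 CPM in WT 3. The log2 fold change was 0.17 ± 0.09 (SE, 95% interval -0.02 to 0.36, adjusted p = 0.376), the smallest p of the core subunits. Ndufs3, Ndufv2 and Ndufs8 were at 0.02, 0.03 and 0.07.

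The 9 accessory subunits of the hydrophilic arm had a median log2 fold change of 0.15 (range 0.00 to 0.27), and none was below 0. Ndufa2, a small subunit with a thioredoxin-like fold (ENSMUSG00000014294, GRCm38 chromosome 18, 36742332 to 36744557, minus strand), had 297, 251, 254 and 297 CPM in the libraries labelled KO 1 to 4, against 235, 205, 251 and 221 CPM in WT 1 to 4. The libraries labelled KO lay above WT with no overlap, by less than the rounding between KO 2 and WT 3. Its log2 fold change was 0.27 ± 0.10 (SE, 95% interval 0.05 to 0.49, adjusted p = 0.254). Ndufa6, a subunit of the LYR family that binds the acyl carrier protein and the gene with the highest level per length of principal transcript in this class (ENSMUSG00000022450, GRCm38 chromosome 15, 82350140 to 82354322, minus strand), had 520, 414, 458 and 537 CPM in the libraries labelled KO 1 to 4, against 441, 395, 474 and 433 CPM in WT 1 to 4. KO 1 and KO 4 were above every WT library, KO 2 and KO 3 were not, and the log2 fold change was 0.15 ± 0.11 (SE, 95% interval -0.09 to 0.38, adjusted p = 0.542). It was 0.09 when KO 4 was left out and 0.26 with the muscle covariate. The other 7 subunits of this class lay at 0.00 (Ndufa9), 0.02 (Ndufv3), 0.06 (Ndufs4), 0.15 (Ndufs6), 0.17 (Ndufa7), 0.24 (Ndufa5) and 0.24 (Ndufa12). Ndufs4, whose loss in mice is a model of Leigh syndrome, had an interval of -0.13 to 0.26.

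Of the 19 accessory subunits of the membrane arm, 16 were above 0 and 3 below (Ndufa10, Ndufb8 and Ndufb5), with a median of 0.13. Ndufa11, a membrane-embedded subunit (ENSMUSG00000002379, GRCm38 chromosome 17, 56717767 to 56722141, plus strand), had 275, 255, 265 and 311 CPM in the libraries labelled KO 1 to 4, against 232, 223, 232 and 231 CPM in WT 1 to 4. All libraries labelled KO exceeded all WT libraries, and the WT libraries lay close together. The log2 fold change was 0.27 ± 0.09 (SE, 95% interval 0.08 to 0.46, adjusted p = 0.202). Exons of Ndufa11, Ndufa2 and Ndufa13 overlap a gene on the other strand (Vmac, Tmco6 and Tssk6).

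Ndufa13, also called GRIM-19, a subunit with a membrane-spanning helix (ENSMUSG00000036199, GRCm38 chromosome 8, 69894180 to 69902558, minus strand), had 467, 389, 399 and 478 CPM in the libraries labelled KO 1 to 4, against 375, 339, 392 and 358 CPM in WT 1 to 4. KO 1, KO 3 and KO 4 stood above every WT library, whereas KO 2 lay below WT 3. The log2 fold change was 0.25 ± 0.10 (SE, 95% interval 0.02 to 0.47, adjusted p = 0.285). Ndufa10, a subunit related to nucleoside kinases (ENSMUSG00000026260, GRCm38 chromosome 1, 92439010 to 92473860, minus strand), had 487, 559, 578 and 632 CPM in the libraries labelled KO 1 to 4, against 672, 561, 610 and 656 CPM in WT 1 to 4. KO 1 was the lowest of all 8, and KO 3 and KO 4 lay above WT 2. The log2 fold change was -0.15 ± 0.11 (SE, 95% interval -0.38 to 0.09, adjusted p = 0.539), with -0.08 when KO 1 was left out and -0.02 with the muscle covariate. Ndufa3, a small subunit with the highest level per length of principal transcript in this class (ENSMUSG00000035674, GRCm38 chromosome 7, 3617373 to 3620327, plus strand), had 421, 387, 388 and 434 CPM in the libraries labelled KO 1 to 4, against 392, 336, 428 and 337 CPM in WT 1 to 4. WT 3 was near KO 4, the highest library, and the log2 fold change was 0.13 ± 0.10 (SE, 95% interval -0.10 to 0.35, adjusted p = 0.598). It was 0.08 when WT 2 or WT 4 was left out, 0.20 when WT 3 was left out and 0.24 with the muscle covariate. The groups were also apart for Ndufb11, at 490 ± 38.0 CPM in the libraries labelled KO and 441 ± 15.2 CPM in WT, with a log2 fold change of 0.15 ± 0.09. Ndufb9 was at 0.24 ± 0.11, Ndufb7 and Ndufa1 at 0.23, Ndufc1 at 0.18 and Ndufb3 at 0.17. The other 9 subunits of the class lay between -0.06 (Ndufb8) and 0.13 (Ndufb10).

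**Figure D2:**
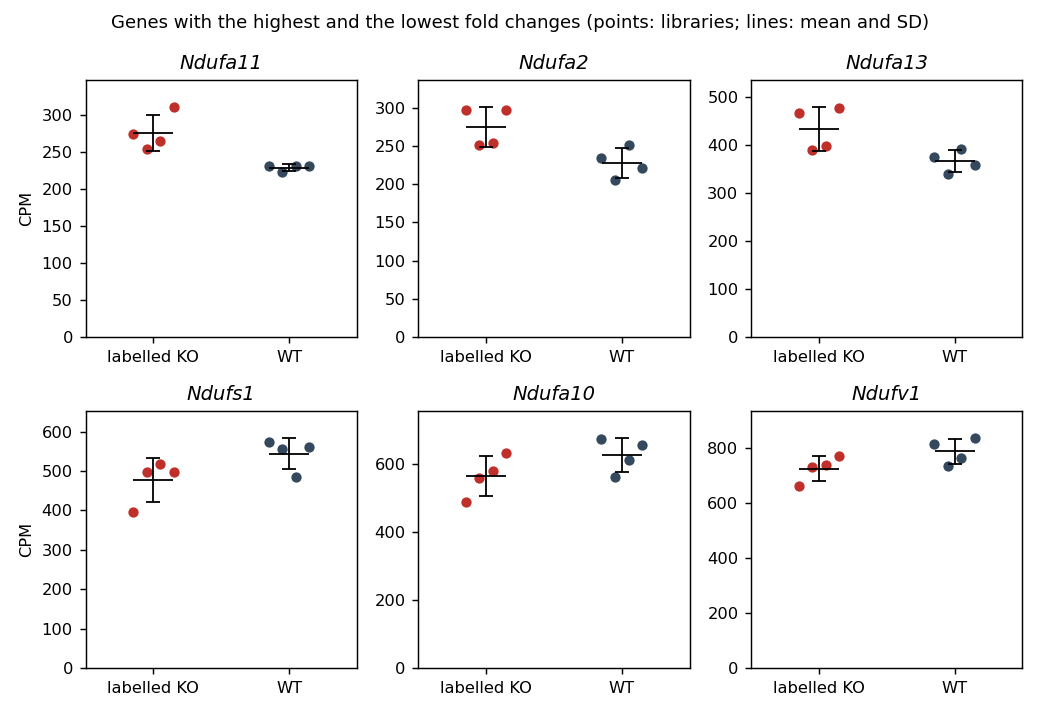
CPM (y axis, from 0) of the 3 genes with the highest and the 3 with the lowest log2 fold change, 1 point per library, with the mean and SD of the 4 libraries labelled KO (left) and of the 4 WT libraries (right). The groups are apart for Ndufa11 and, by under 1 CPM, for Ndufa2, and they overlap for Ndufa13, Ndufs1, Ndufa10 and Ndufv1.

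Ndufab1, the mitochondrial acyl carrier protein, is bound in both arms and also serves fatty acid synthesis (ENSMUSG00000030869, GRCm38 chromosome 7, 122085403 to 122101886, minus strand). It had 490, 481, 504 and 565 CPM in the libraries labelled KO 1 to 4, against 583, 507, 538 and 577 CPM in WT 1 to 4. The groups overlapped, with a log2 fold change of -0.11 ± 0.09 (SE, 95% interval -0.32 to 0.09, adjusted p = 0.605). It was -0.17 when KO 4 was left out, -0.07 with scaling by total counts and 0.00 with the muscle covariate. Its transcript has near-identical copies in Gm4459 and Ndufab1-ps, so its count is uncertain.

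The 8 assembly factors had a median log2 fold change of -0.05 (range -0.12 to 0.22), with 2 above 0 and 6 below. Ndufaf8, which in human cells works with Ndufaf5 on the core subunit Ndufs7 (ENSMUSG00000078572, GRCm38 chromosome 11, 120098928 to 120100705, plus strand), had 30.9, 30.2, 26.5 and 30.2 CPM in the libraries labelled KO 1 to 4, against 24.9, 23.2, 26.9 and 26.6 CPM in WT 1 to 4. KO 3 lay below WT 3 and WT 4, and the other libraries labelled KO lay above all WT libraries. The log2 fold change was 0.22 ± 0.09 (SE, 95% interval 0.02 to 0.42, adjusted p = 0.297), while its partner Ndufaf5 was at -0.05 ± 0.12. Ndufaf1, an early factor of membrane arm assembly (ENSMUSG00000027305, GRCm38 chromosome 2, 119655446 to 119662827, minus strand), had 43.2, 54.6, 63.8 and 59.5 CPM in the libraries labelled KO 1 to 4, against 60.6, 60.4, 48.1 and 59.2 CPM in WT 1 to 4. The lowest library labelled KO was KO 1 and the lowest WT library was WT 3, with a log2 fold change of -0.04 ± 0.13 (SE, 95% interval -0.32 to 0.23, adjusted p = 0.9). Ndufaf7, a methyltransferase, was at -0.12, Ndufaf2 at -0.11, Ndufaf3 at -0.09, Ndufaf4 at -0.04 and Ndufaf6 at 0.12.

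Outside complex I itself, Ndufa4 (ENSMUSG00000029632, GRCm38 chromosome 6, 11900292 to 11907497, minus strand) had 1125, 979, 1047 and 1109 CPM in the libraries labelled KO 1 to 4, against 991, 815, 999 and 943 CPM in WT 1 to 4. The lowest library was WT 2 and the groups overlapped, with a log2 fold change of 0.18 ± 0.10 (SE, 95% interval -0.04 to 0.41, adjusted p = 0.411), and 0.29 with the muscle covariate. Ndufa4l2, known as a gene induced by low oxygen (ENSMUSG00000040280, GRCm38 chromosome 10, 127514967 to 127517154, plus strand), had 7.27, 6.49, 8.15 and 10.1 CPM in the libraries labelled KO 1 to 4, against 7.04, 8.92, 7.89 and 7.92 CPM in WT 1 to 4. KO 4 was its highest library and KO 2 its lowest, and the log2 fold change was 0.01 ± 0.16 (SE, 95% interval -0.34 to 0.36, adjusted p = 0.986). The pseudogene Ndufs6b had a log2 fold change of 0.17 ± 0.16, but its sequence is close to that of Ndufs6 and reads may be split between them.

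Levels were compared between genes as mean CPM per kilobase of the principal transcript over the 8 libraries. Core subunits of the hydrophilic arm had a median level of 362 CPM per kb, accessory subunits of that arm 350, accessory subunits of the membrane arm 461 and Ndufab1 375. Assembly factors had a median level of 25.5 CPM per kb, and the median of the 36 subunits was 15.7 times theirs. By this length the lowest subunit was Ndufb2 at 72.4 CPM per kb and the highest assembly factor Ndufaf1 at 38.7. Ndufa6 (778), Ndufa3 (758) and Ndufa1 (706) stood highest among subunits, Ndufa4 was the highest of all 47 genes at 1641 CPM per kb, and Ndufa4l2 the lowest at 8.54. The order of single genes depended on the length used. Per kilobase of the union of all annotated exons, an alternative added after seeing the data, Ndufb2 had 5.85 CPM and lay below the assembly factors, whose levels ran from 6.07 (Ndufaf2) to 37.4 (Ndufaf1). By the union length Ndufa1 (706), Ndufb6 (656) and Ndufb11 (512) were the highest subunits, Ndufa6 had 255, Ndufa3 382 and Ndufab1 77.1, and Ndufa4 had 725. The median of the subunits by that length was 15.6 times that of the assembly factors. Several of these genes share exons or sequence with others, so single levels depend on how reads were assigned: exons of 17 overlap a gene on the other strand, those of 3 a gene on the same strand, and 9 have a near-identical copy.

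**Figure D3:**
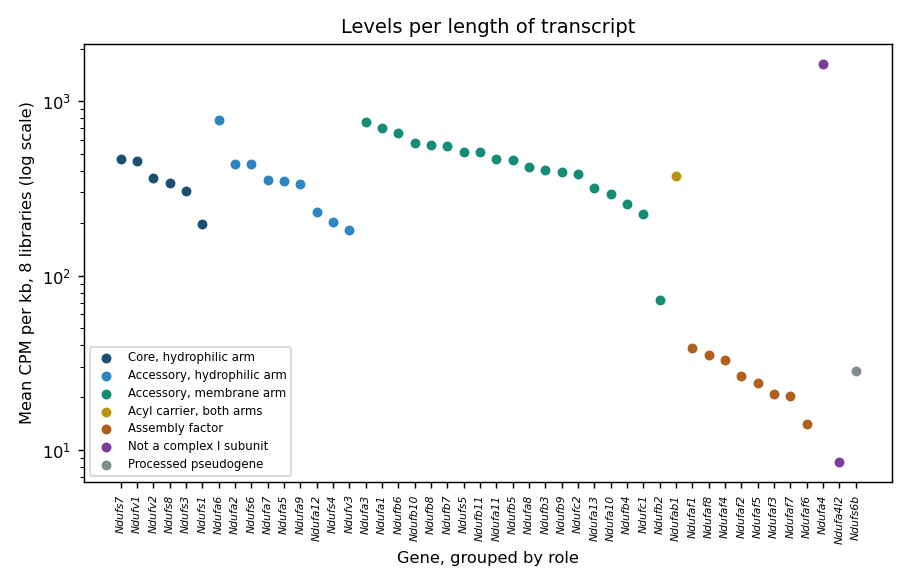
Mean level over 8 libraries in CPM per kilobase of the principal transcript (y axis, log scale) of 46 of the 47 genes (x axis), grouped by role and ordered by level. By this length the 35 subunits drawn lie between 72.4 and 778 CPM per kb, and the 8 assembly factors between 14.1 and 38.7; by the union of exons Ndufb2 would lie at 5.85.

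The genes varied together from library to library, and the groups overlapped. The summed level of the 47 genes was 15279, 14609, 15337 and 16853 CPM in the libraries labelled KO 1 to 4, against 15405, 13816, 15288 and 14726 CPM in WT 1 to 4. The ranges overlapped, with KO 4 highest and WT 2 lowest. KO 4 held the highest value of 31 of the 47 genes and the lowest of 0, and WT 2 held the highest of 0 and the lowest of 26. These counts were not set beside those of all tested genes. A gene's highest library was 1.33 times its lowest in the median, from 1.09 for Ndufb5 to 1.64 for Ndufa1. The coefficient of variation within a group had a median of 8.46% in the libraries labelled KO and 7.28% in WT.

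After the group means were subtracted, 86.8% of the 1081 pairs among the 47 genes had a positive correlation over the 8 libraries, with a median of 0.56. This is a description, since the genes share libraries, depth and scaling, and it was not set beside pairs of other genes. Ndufa8, a subunit on the outer face of the membrane arm, had the highest mean correlation with the others, at 0.67. Ndufaf6 (-0.39), Ndufs1 (0.00) and Ndufaf1 (0.03) had the lowest. By role, the accessory subunits of the membrane arm had median deviations of 0.10, -0.06, 0.01 and 0.20 log2 units in KO 1 to 4, against 0.01, -0.16, 0.04 and -0.10 in WT 1 to 4. The assembly factors had -0.08, -0.09, -0.01 and 0.11 in KO 1 to 4, against 0.11, 0.06, -0.09 and 0.07 in WT 1 to 4. KO 4 was the highest library for the membrane arm, whereas for the assembly factors it was level with WT 1, both at 0.11. WT 2 was low for the membrane arm and not for the assembly factors. KO 4 also held the least muscle marker RNA of the libraries labelled KO, and WT 2 the most of WT. The part of muscle RNA in this variation was not tested.

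**Figure D4:**
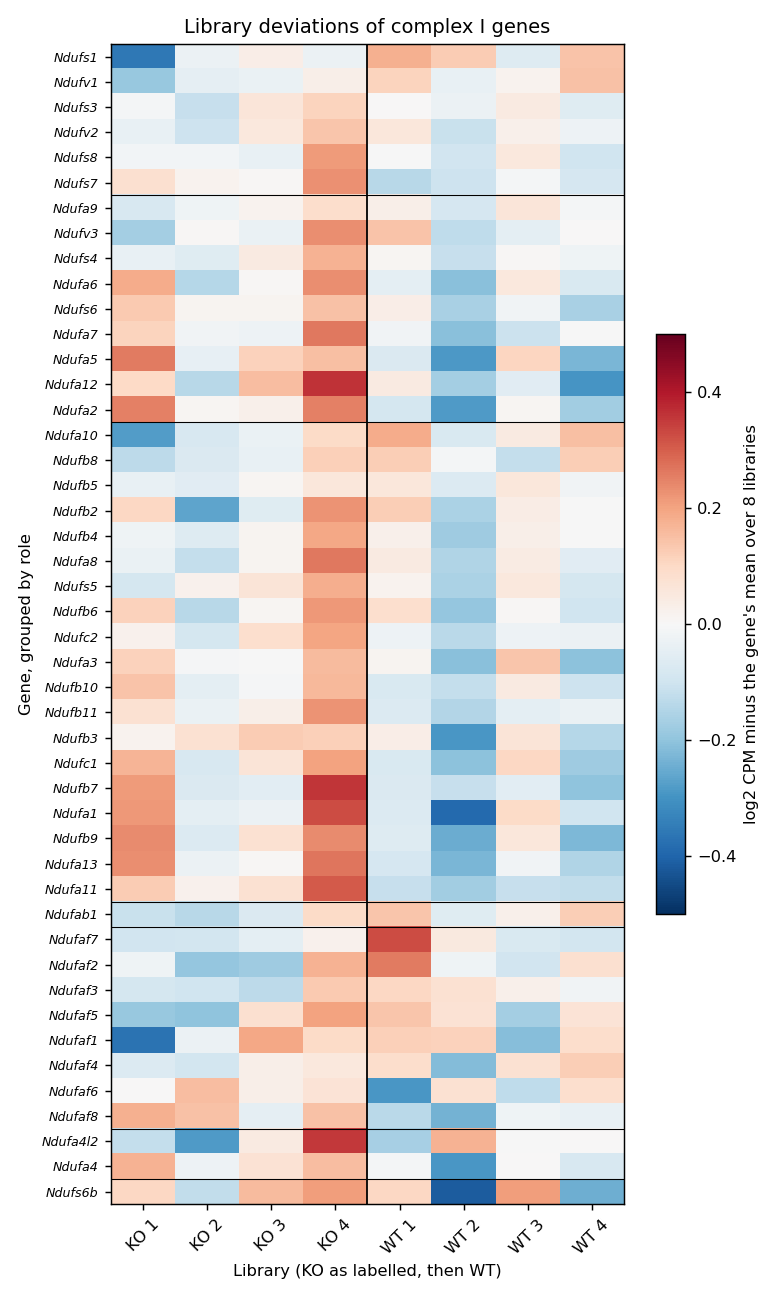
Deviation of each library's log2 CPM from the gene's mean over the 8 libraries (colour, log2 units) for 46 of the 47 genes (y axis, grouped by role), with the libraries labelled KO left of the line and WT right of it. KO 4 is the highest library for 31 genes and WT 2 the lowest for 26, and Ndufs1, Ndufv1 and Ndufa10 are lowest in KO 1.

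Fold changes were lower for longer transcripts, a pattern noticed in the data and given as a description. Over the 47 genes, Spearman's correlation of the log2 fold change with the length of the principal transcript was -0.58, and over the 23 genes with no overlapping exon and no near-identical copy it was -0.77. Leaving out each library in turn gave -0.52 to -0.62. Of the 21 genes with transcripts of up to 800 bases, 19 (90.5%) were above 0, with a median of 0.17. Of the 9 genes above 1500 bases, 3 (33.3%) were above 0, with a median of -0.05. The core subunits have longer transcripts (median 1623 bases) than the accessory subunits of the membrane arm (704 bases), and the assembly factors lie between them (1308 bases).

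Other genes showed the same direction with length. Of the other tested genes at or above the lowest level of the 47, 332 of 410 (81.0%) with transcripts of up to 800 bases were above 0, with a median of 0.17. Of those above 1500 bases, 3130 of 7349 (42.6%) were above 0, with a median of -0.03, and Spearman's correlation over all 8939 was -0.20. The difference between short and long genes of the 47, as median log2 deviations, was 0.26, 0.01, -0.02 and 0.16 in KO 1 to 4, against -0.13, -0.11, -0.01 and -0.12 in WT 1 to 4. Among the other genes it was 0.16, -0.02, 0.06 and 0.20 in KO 1 to 4, against -0.07, -0.19, -0.01 and -0.13 in WT 1 to 4. KO 1 and KO 4 were high by both, and the part of RNA quality or library preparation was not tested.

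**Figure D5:**
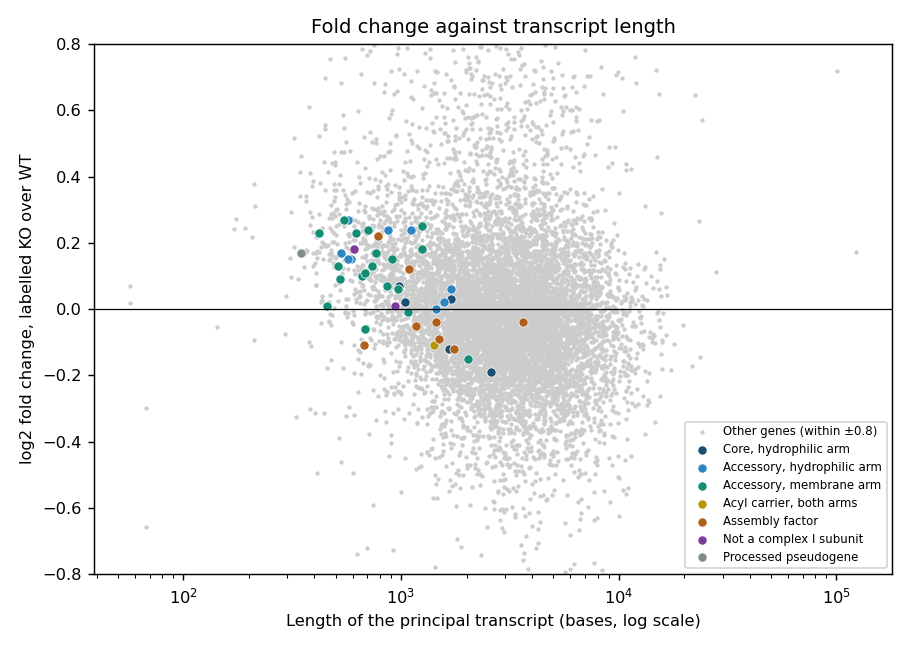
Log2 fold change, libraries labelled KO over WT (y axis), against the length of the principal transcript in bases (x axis, log scale), for 46 of the 47 genes by role and for 8939 other tested genes at or above their lowest level (grey, those within the y axis). The coloured points run lower towards longer transcripts, with Spearman's correlation over all 47 at -0.58, and over the grey genes it is -0.20.

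The other genes of the complex and of the chain were read, by lists, from the same fit. The 7 core subunits of the membrane arm encoded in mitochondrial DNA had a median log2 fold change of -0.10, and none was past the threshold. mt-Nd1 had 33787 ± 2450 CPM in the libraries labelled KO and 33685 ± 4020 CPM in WT, with a log2 fold change of 0.00 ± 0.13. mt-Nd2 was at -0.10 ± 0.15, mt-Nd4 at 0.07 ± 0.15, mt-Nd5 at -0.22 ± 0.14 and mt-Nd6 at -0.39 ± 0.23. The other two mitochondrial genes each had a library far from the rest. mt-Nd3 had 40.7, 13.6, 29.2 and 119 CPM in KO 1 to 4, against 15.9, 25.0, 18.9 and 14.6 CPM in WT 1 to 4 (log2 fold change 1.44 ± 0.52, adjusted p = 0.238). mt-Nd4l had 2.45, 3.55, 3.50 and 4.57 CPM in KO 1 to 4, against 2.62, 5.31, 4.62 and 85.1 CPM in WT 1 to 4 (log2 fold change -2.76 ± 0.99, adjusted p = 0.238). KO 4 stood far above the rest for mt-Nd3, and WT 4 for mt-Nd4l. The summed mitochondrial subunits were 5.76 ± 0.388 times the sum of the 47 nuclear genes in the libraries labelled KO and 6.26 ± 0.564 times in WT (n = 4 each), and the ranges overlapped (5.44 to 6.32 and 5.51 to 6.81).

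Of 11 assembly factors named outside the Nduf series, 10 were measured, with a median of -0.09, 2 above 0 and 8 below, and none past the threshold. Acad9, a relative of acyl-CoA dehydrogenases that acts with Ndufaf1 and Ecsit, was at -0.36 ± 0.16 (adjusted p = 0.311), with 31.6 ± 6.80 CPM in the libraries labelled KO and 40.6 ± 5.40 CPM in WT. Ecsit was at 0.02 ± 0.07. The nuclear subunits of complexes II to V, of which 40 of 41 were measured, had a median of 0.15, with 31 above 0, 9 below and none past the threshold. Regulators of mitochondrial biogenesis were measured for 11 of 11, with a median of 0.02 and none past the threshold. The smallest p among them belonged to the coactivator Ppargc1a (-0.51 ± 0.26, adjusted p = 0.381), the nuclear receptor Esrra (-0.19 ± 0.10, adjusted p = 0.394) and the coactivator Ppargc1b (-0.35 ± 0.19, adjusted p = 0.408).

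Markers of the cell types in the tissue all passed the filter on low counts, and none was past the threshold. By edgeR's test, 17 of 30 muscle and 3 of 14 macrophage markers were higher in the libraries labelled KO at unadjusted p under 0.05. At the same p, 2 of 9 brown fat markers were lower, and 0 of 8 endothelial markers differed. Over all tested genes, 8.05% were higher and 7.12% lower at that p. Of 30 muscle markers, 29 were above 0, with a median of 0.68, and the summed levels overlapped between the groups (13917 to 25988 CPM in the libraries labelled KO and 7541 to 19723 CPM in WT). Of 9 brown fat markers, 1 was above 0 and 8 below, with a median of -0.30 and sums of 21594 to 28100 CPM in the libraries labelled KO and 26313 to 32574 CPM in WT. Of 14 macrophage markers, 14 were above 0, with a median of 0.39 and sums of 124 to 214 CPM in the libraries labelled KO and 116 to 170 CPM in WT. The 8 endothelial markers had a median of 0.00. Myl1, which lends its promoter to the Cre, had 367 ± 105 CPM in the libraries labelled KO and 378 ± 68.8 CPM in WT (adjusted p = 0.94). The part of these cell types in the values of the 47 genes was not tested beyond the muscle covariate given above.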

How the data were processed

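RNA sequencing counts from interscapular brown fat of 8 mice were analysed, 4 in the group labelled KO and 4 in WT, as named in the sample labels, which call them separate mice. Stranded mRNA libraries were made, per the labels' protocols. FastQC, Trimmomatic, HISAT2, SAMtools and featureCounts of Subread were used with GRCm38, per the submitters' processing notes. The sources used here do not give their versions, their settings, strand included, or the gene annotation. The authors deposited whole-number read counts per gene with no normalization, and each value used here derives from them.

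CPM used TMM-scaled library sizes. Genes kept by filterByExpr (13756) were fitted in R 4.3.3 with edgeR 4.0.16 (limma 3.58.1), whose quasi-likelihood test compared the genotypes, with Benjamini-Hochberg adjustment over all of them and a threshold of 0.05. Where no tool is named, an adjusted p is edgeR's. Each SE from edgeR was derived from the test, as the size of the log2 fold change over the square root of its F value. The intervals were built from that SE. The biological coefficient of variation was 16.4%. Replicates of a group differed by more than sampling noise in every pair (11.2 to 58.1 as chi-square over its degrees of freedom). A count of 0 (limit 3 counts) allowed up to 0.15 to 0.25 CPM, for counting error only.

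The members, roles, lists and motif letters were chosen with earlier results of these data known. Genes with all values printed are the 3 highest and 3 lowest fold changes, the smallest p and the highest level per length of each role, Ndufa4 and Ndufa4l2. A gene under this rule is counted but not otherwise reported. Positions, exon overlaps and principal transcripts (protein-coding, lowest APPRIS and support level, then shortest) came from GENCODE mouse release 21, which held 99.9% of the gene IDs and could differ from the annotation behind the counts. Near-identical copies match at 95% identity over 200 bases in another gene's transcript (blastn). The test was checked on simulated counts with changes larger than any estimate of the complex I genes. The check therefore does not show how often the test finds changes as small as those estimates. Results were recomputed with DESeq2 1.42.0 and limma-voom, under other scalings, filters and dispersion, with a block for mouse number, with a covariate for the muscle score, and without each library in turn.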

Additional observations from a re-analysis of the deposited data

Results flagged for a closer look

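Within groups of 4, a library was looked at again when its gap to the nearest other library, as a share of the group's range (Dixon's ratio), exceeded the critical value at 95% for 4 values. Of 94 groups of the 47 genes, 7 had such a library, and chance flags about 1 in 20 groups. In the libraries labelled KO, KO 4 stood above the others for the core subunit Ndufs8 (386 CPM, ratio 0.915) and for the assembly factor Ndufaf3 (34.1 CPM, ratio 0.847), and KO 3 stood below them for the assembly factor Ndufaf8 (26.5 CPM, ratio 0.852). In WT, WT 2 stood below the others for Ndufc2 (239 CPM, ratio 0.921), Ndufaf4 (102 CPM, ratio 0.873) and Ndufa11 (223 CPM, ratio 0.869), and WT 3 for Ndufaf1 (48.1 CPM, ratio 0.893).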

How the results depend on the processing

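None of the 47 genes passed the threshold under any of the 18 alternative fits, and the lowest adjusted p in any of them was 0.0857, with DESeq2. The number of all genes past the threshold was 53 in the fit reported, 384 with DESeq2, 187 with no filter, 155 with the mouse number as a block, 27 with the muscle score as a covariate, and 24 to 75 with each library left out in turn. The median log2 fold change of the 47 genes was 0.19 with the muscle covariate and 0.04 to 0.10 with each library left out. Of 270 fold changes of named genes under alternatives, 264 kept their direction. Ndufab1 was at 0.00, above 0 before rounding, with the muscle covariate, against -0.11. Ndufaf1 ran from -0.12 to 0.06 with single libraries left out. Ndufa4l2 was at -0.01 with limma-voom, at -0.01 with the block, and ran from -0.12 to 0.10 with single libraries left out. The cause was not tested. The mouse numbers were not taken as pairs: deviations of same-numbered libraries correlated at 0.0235, 0.404, 0.0322 and 0.172, and not every library correlated best with its own number. SE were 0.0829 to 0.125 for the 36 subunits and widest, at 0.16, for Ndufa4l2 and Ndufs6b, which had the fewest counts.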
